A study of Populus yunnanensis with 9 samples.

Results

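The members described here are 133 of the 41335 genes counted in Yunnan poplar (Populus yunnanensis) leaves. They are the genes that were highest under Cd treatment and lower both under Cd + N treatment and in the control (CK). A gene was taken when its mean over the 9 libraries was at least 1 TMM-normalized CPM, which is the reads counted on a gene scaled to a common library size and corrected for library composition. In addition, each Cd value had to lie above each Cd + N and each CK value. The Cd mean also had to be at least 1.5 times the Cd + N mean and at least 1.5 times the CK mean. The members were thus chosen by their normalized values in all 9 libraries, so the Cd levels and the ratios to Cd are given as a description, and no test of Cd against CK or of Cd + N against Cd is given for them.

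Leaves of 3 groups of plants were sequenced, with 3 libraries per group. Cd + N plants received cadmium chloride to a final 480 mg Cd per kg dry soil together with ammonium bicarbonate to a final 360 mg N per kg. Cd plants received the cadmium without the ammonium bicarbonate, and CK plants received neither. No group received nitrogen without Cd. All plants were grown from cuttings of 15 wild trees at 3 cuttings per pot, are labelled as 4-month seedlings and were harvested after 60 d of treatment. Whether a library holds leaves of 1 plant or of several, and which tree a plant came from, is not stated. P-values therefore measure the spread between these libraries.

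Cadmium is a non-essential metal that plants take up through carriers of essential metals such as iron and zinc. In leaves it binds thiol groups, displaces other metals and raises reactive oxygen species, and photosynthesis is known to be sensitive to it. Plants bind the metal to glutathione and phytochelatins, which are small thiol peptides, and store the complexes in the vacuole. Nitrogen supplies the amino acids of which these peptides are made, and the study added nitrogen to ask how it changes the response to Cd. The deposited tables list genes by identifier alone and do not pair identifiers with names or functions, so no member was given a role. The same limit meant that leaf markers were not checked. In whole leaves, fewer cells of a type and less RNA per cell cannot be told apart.

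Between 31952278 and 40101176 reads per library were counted on genes. Cd replicate 1, CK replicate 2 and Cd + N replicate 2 stood apart from the other libraries of their groups. Over the 27378 genes kept for testing, the distance of Cd replicate 1 (root mean square of the log2 CPM differences) was 0.71 to CK replicate 1 but 1.19 and 1.06 to Cd replicates 2 and 3. Over the 133 members alone it lay 0.731 and 0.829 from Cd replicates 2 and 3 and 0.979 from CK replicate 1, but the rule itself demanded such an order for the members. CK replicate 2 was 0.81 from Cd + N replicate 3 but 0.872 and 0.939 from CK replicates 1 and 3. Over the members it was 0.823 to 0.973 from the Cd + N libraries and 1.15 and 1.11 from the other CK libraries. Cd + N replicate 2 was 0.985 and 0.934 from Cd + N replicates 1 and 3, which were 0.562 apart. The nearest library of another group, Cd replicate 2, was at 1.06 from it. For the main counts, values without one of these libraries are given beside those with it.

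Of the 23384 genes with a mean of at least 1 CPM, 407 had each Cd value above each other value, which is 1.74%. Without Cd replicate 1, 2379 of 23376 genes had this order, which becomes more frequent for any gene when fewer libraries must meet it. Of the 407, 274 had a ratio under 1.5 and were left out, and the 133 members are 0.569% of the 23384. All 133 passed the filter on low counts used for the test below. The 3 members just inside the limit had smaller ratios of 1.525, 1.526 and 1.526, and the 3 genes just outside had 1.497, 1.490 and 1.482. The number that passed changed most when it was counted without Cd replicate 1 (757), without Cd replicate 2 (239) and without CK replicate 3 (218). Of the 133 members, 128, 117 and 129 were among the genes that passed in these cases. Without Cd + N replicate 2, 184 genes passed, and 115 of the members were among them. With Cd + N in the place of Cd in the same rule, 582 genes passed, or 2.49%, and with CK in its place 233 genes passed, or 0.996%. These shares describe the same 9 libraries and were not compared by a test.

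The members were mostly genes of low abundance. Their mean over the 9 libraries had a median of 6.28 CPM, against 16.8 CPM for all genes with at least 1 CPM. Per group, the median of the members' means was 3.55 CPM under Cd + N, 9.45 CPM under Cd and 4.36 CPM in CK. Under Cd, 43 members had under 5 CPM, 52 had between 5 and 20 CPM and 38 had at least 20 CPM. The lowest count behind any Cd value was 24 reads, and 4 members had a count of 0 in some library, none of them in a Cd library.

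**Figure D1:**
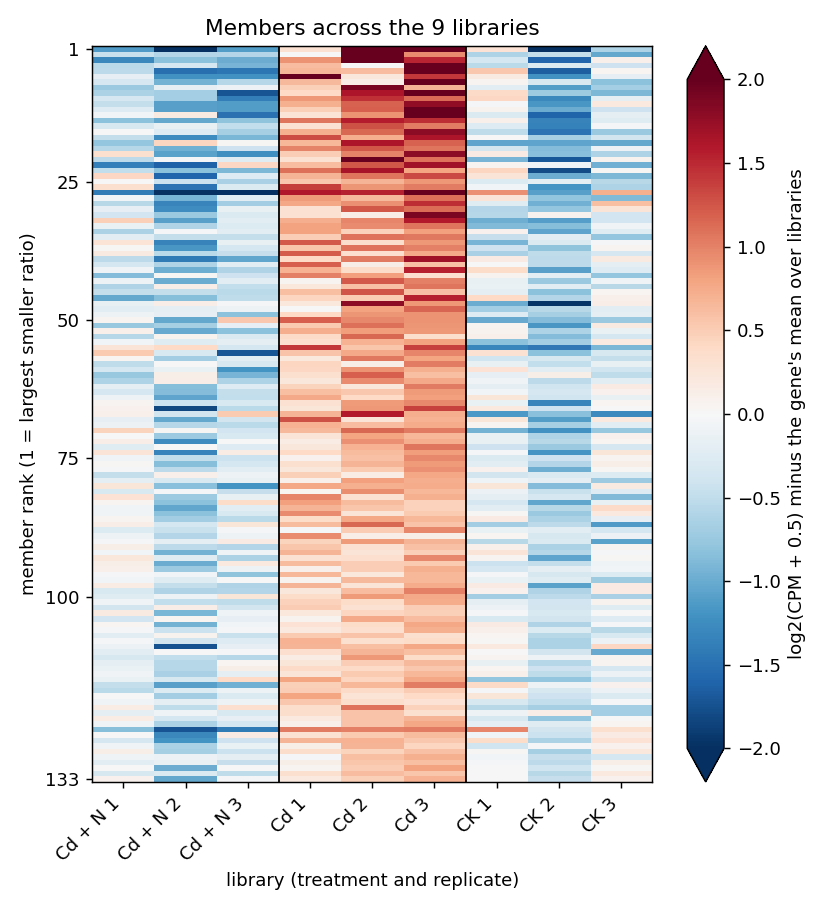
Level of each of the 133 members (rows, ordered by the smaller of the 2 ratios) in the 9 libraries (columns), as log2(CPM + 0.5) minus the mean of the gene over the libraries. The 3 Cd columns are above the mean for nearly the whole list by construction, with the palest of them in Cd replicate 1, where the members had a median of 7.45 CPM against 9.87 and 10.4 CPM in Cd replicates 2 and 3.

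Summed over the members, expression was 1428, 1057 and 1232 CPM in Cd + N replicates 1, 2 and 3. The sums were 2316, 3020 and 3331 CPM in Cd replicates 1, 2 and 3, and 1455, 955 and 1382 CPM in CK replicates 1, 2 and 3. The means were 1239 ± 185 CPM under Cd + N, 2889 ± 520 CPM under Cd and 1264 ± 270 CPM in CK (SD, n = 3 each), and the sums of Cd + N and CK overlapped. Without Cd replicate 1 the Cd mean was 3210 CPM. As a share of all reads, the members took 0.124% under Cd + N, 0.301% under Cd and 0.123% in CK on average.

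The ratio of Cd to CK had a median of 2.15 over the members and reached 18.9. The ratio of Cd to Cd + N, which is above 1 where Cd + N is lower, had a median of 2.17 and reached 52.9. Both ratios were at least 2 in 58 members, at least 3 in 18 and at least 5 in 6. Without Cd replicate 1 these counts were 74, 25 and 8. With all libraries, the 6 members with both ratios of at least 5 had Cd means of 27.2, 4.45, 4.72, 2.54, 6.18 and 2.68 CPM. All but the first were thus of low abundance. Their Cd + N means lay between 0.176 and 0.549 CPM and their CK means between 0.362 and 1.44 CPM, so these ratios rest on low values. Members under 5 CPM in Cd had a median smaller ratio of 2.04, and those of at least 20 CPM had 1.92. Without Cd replicate 1 the median ratios were 2.25 to CK and 2.30 to Cd + N. Without CK replicate 2, the CK library in which the members were lowest, the ratio to CK was 1.88, and 106 of the 133 members still had both ratios of at least 1.5.

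**Figure D2:**
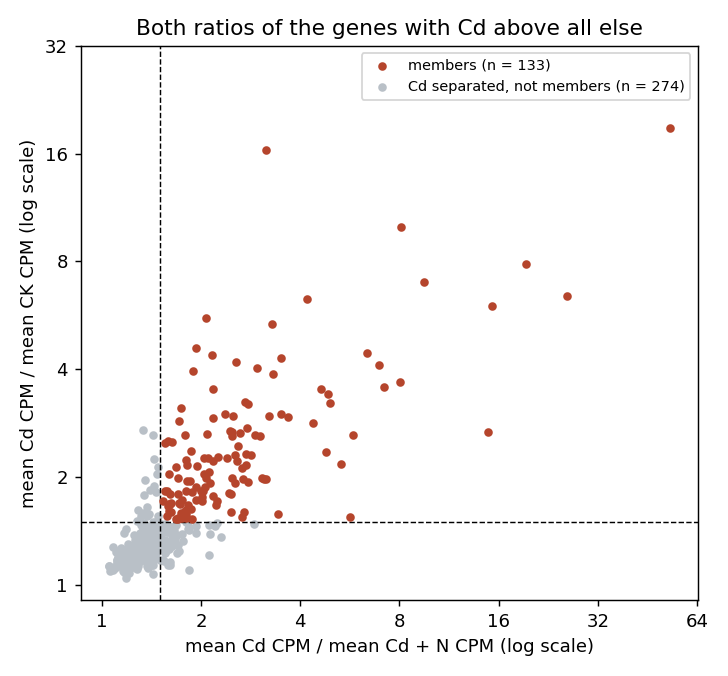
Ratio of the Cd mean to the CK mean (vertical, log scale) against the ratio of the Cd mean to the Cd + N mean (horizontal, log scale) for the 407 genes in which Cd lay above all other values. The 133 members are in red, the 274 genes left out are in grey, and dashed lines mark the limit of 1.5. Most members lie close to the limit, with medians of 2.15 and 2.17, and 1 member stands far out at 18.9 and 52.9.

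The member with the largest smaller ratio had 0.761, 0 and 0.779 CPM in Cd + N replicates 1, 2 and 3. It had 2.91, 13.4 and 65.1 CPM in the Cd replicates and 2.87, 0.125 and 1.31 CPM in the CK replicates. Its high ratio came from Cd replicates 2 and 3, while Cd replicate 1 was only 1.01 times the highest CK value. The second in this order had 0.615, 0.513 and 0.519 CPM under Cd + N, 1.03, 9.90 and 2.44 CPM under Cd and 0.495, 0.592 and 0.252 CPM in CK. Here Cd replicate 2 alone carried most of the Cd level. The third had 0.117, 0.351 and 0.260 CPM under Cd + N, 2.29, 8.03 and 3.83 CPM under Cd and 0.678, 0 and 1.12 CPM in CK. In this gene each Cd library was at least 2.05 times the highest value outside Cd.

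The member with the highest Cd mean had 50.7, 44.1 and 51.3 CPM in Cd + N replicates 1, 2 and 3, 191, 268 and 253 CPM under Cd and 97.3, 35.5 and 75.8 CPM in CK. The Cd libraries were close to each other in this gene, and the lowest of them was 1.96 times the highest CK value. It was also the member with the highest FPKM under Cd, a mean of 152, where FPKM divides the reads by a length per gene and the library total. The member with the second highest Cd mean had 49.0, 27.3 and 26.7 CPM under Cd + N, 82.1, 135 and 259 CPM under Cd and 61.4, 29.4 and 43.8 CPM in CK. Its Cd libraries spread over a range of more than 3 to 1 and still did not overlap the others. The member with the third highest Cd mean had 90.0, 70.7 and 76.1 CPM under Cd + N, 148, 114 and 117 CPM under Cd and 92.7, 58.3 and 84.0 CPM in CK, with Cd + N and CK at nearly the same level.

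For most members the gap between the groups was narrow. The lowest Cd value was 1.13 times the highest value outside Cd in the median member, under 1.1 times in 54 members and at least 1.5 times in 14. Without Cd replicate 1 the median was 1.39, with 21 members under 1.1 times and 50 at least 1.5 times. The widest gap was 2.21. That member had 6.71, 5.02 and 7.58 CPM under Cd + N, 20.8, 24.8 and 21.9 CPM under Cd and 7.79, 5.36 and 9.39 CPM in CK. Its Cd libraries had an SD of 2.07 CPM around a mean of 22.5 CPM, and its Cd + N and CK values overlapped.

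Libraries of a group were not alike in the members. Cd replicate 1 was the lowest Cd library in 81 of the 133 members, where 41.9% of the 23384 genes have it lowest. Cd replicate 3 was the highest in 69 members, where 25.1% of all genes have it highest. In 36 members Cd replicate 1 was under 1.1 times the highest library outside Cd, against 17 for Cd replicate 2 and 5 for Cd replicate 3. Among the controls, CK replicate 2 was the lowest in 98 members, against 37.8% of all genes. Under Cd + N, replicate 2 was the lowest in 80 members and replicate 1 the highest in 78, against 44.2% and 33.2% of all genes. The rule sets the lowest Cd value against the highest of the others, so these orders are part of how the members were chosen and were not tested. The spread within groups was wider in the members than in all 23384 genes, with a median coefficient of variation of 0.308 against 0.186 under Cd + N, 0.237 against 0.184 under Cd and 0.283 against 0.154 in CK.

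**Figure D3:**
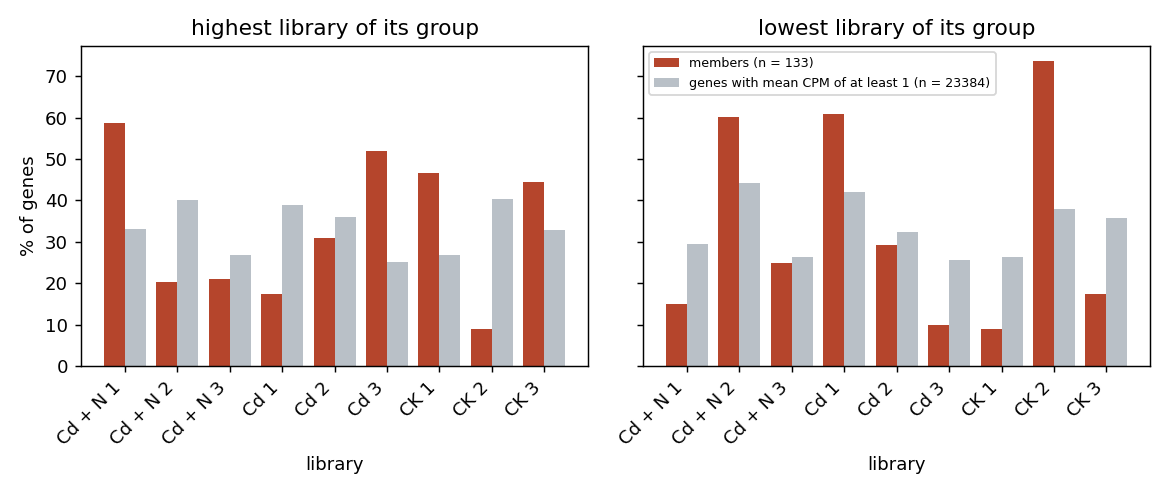
Share of genes in which each library was the highest (left) or the lowest (right) of its own group, for the 133 members (red) and for the 23384 genes with a mean of at least 1 CPM (grey). Cd replicate 1 was lowest in 81 members, CK replicate 2 in 98 and Cd + N replicate 2 in 80.

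Cd + N against CK is the only one of the 3 comparisons that the rule did not use, and it asks how near the members were to the control level when nitrogen had been added. The rule still limits it, because it keeps both groups below Cd. By edgeR's quasi-likelihood test with Benjamini-Hochberg adjustment, 0 of the 133 members differed between Cd + N and CK at an adjusted p under 0.05, where 0.267% of the 27378 genes tested did, 0.201% higher and 0.0657% lower. The smallest adjusted p of a member was 0.0830. At an unadjusted p under 0.05, 15 members differed, 10 higher and 5 lower under Cd + N, where 17.1% of all genes did, 9.44% higher and 7.61% lower. DESeq2 called 9 members, 6 higher and 3 lower, against 7.26% of the 29400 genes with an adjusted p, 4.21% higher and 3.04% lower. With the replicate number as a block, edgeR called 2 members, both lower, against 5.27% of all genes, 2.95% higher and 2.31% lower. Without CK replicate 2, edgeR called 1 member, Potri.006G034000.v3.0, which was lower, against 0.207% of the 28009 genes then tested. The standard error of a member's log2 fold change had a median of 0.36. The 95% interval was taken before adjustment and with fewer degrees of freedom than the test used, which makes it somewhat wide. It reached 0.88 to either side in the median member and 0.65 at the lower quartile. For most members a difference of 1.5-fold was thus not detectable with these libraries. With all libraries, the members with the extreme log2 fold changes, -2.48 and 2.36, had adjusted p of 0.0921 and 0.121 (edgeR). That 0 members were called therefore does not show that the members were at the control level.

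The log2 fold change of Cd + N against CK had a median of -0.12 over the members and of -0.0025 over all genes tested, and it ran from -2.48 to 2.36 in the members. The members' median was -0.25 without Cd + N replicate 1 and -0.28 without CK replicate 2. It was 0.00063 without Cd + N replicate 2 and 0.031 without CK replicate 1, so its sign rests on single libraries. The Cd + N mean was under the CK mean in 80 members, where 50.8% of the 23384 genes had it lower. It was within 1.5-fold of the CK mean in 99 members, where 75.2% of the 23384 genes were. It was at least 1.5-fold under the CK mean in 21 members and at least 1.5-fold over it in 13, against 12.2% and 12.7% of all genes.

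In 16 members the Cd + N and CK libraries did not overlap, 11 with Cd + N higher and 5 with Cd + N lower, where 26.5% of the 23384 genes do not overlap, 13.1% higher and 13.3% lower. With fewer libraries non-overlap becomes more frequent for any gene. Without CK replicate 2 it held for 44 members, 12 higher and 32 lower, against 47.3% of all genes, 23.8% higher and 23.5% lower. Without Cd + N replicate 1 it held for 29 members, against 36.1% of all genes. Without Cd + N replicate 2 it held for 23 members, 17 higher and 6 lower, against 37.9% of all genes. As shares of the 133 members, these are 33.1%, 21.8% and 17.3%.

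**Figure D4:**
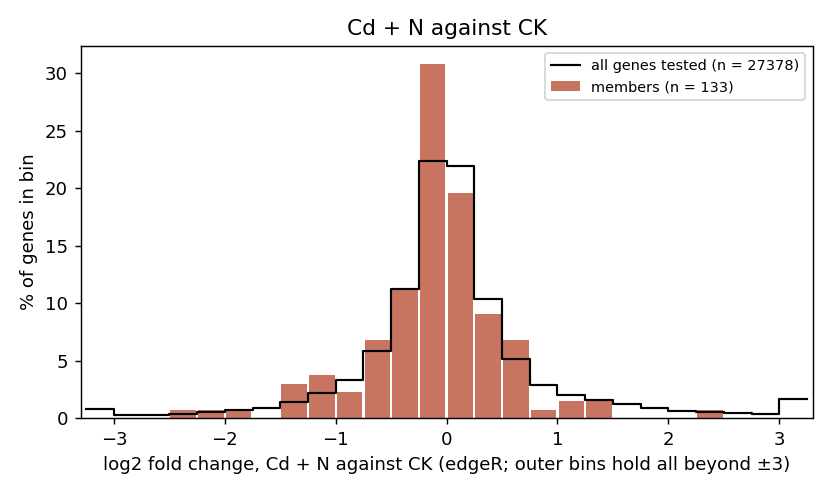
Distribution of the log2 fold change of Cd + N against CK, as the percentage of genes per bin of 0.25, for the 133 members (red bars) and for all 27378 genes tested (black line). Both centre near 0, with medians of -0.12 and -0.0025.

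A pair of members in each direction, those of smallest p between Cd + N and CK, are described by identifier, and none of the 4 passed the adjusted threshold by edgeR's test. In Potri.008G213100.v3.0, the Cd + N replicates 1, 2 and 3 had 14.3, 15.7 and 9.19 CPM, the Cd replicates had 32.4, 17.6 and 31.2 CPM and the CK replicates had 4.48, 4.08 and 6.04 CPM. All Cd + N values lay above all CK values and below all Cd values. Cd + N stood 1.42 ± 0.30 (SE) above CK on the log2 scale (adjusted p = 0.0913, edgeR). In Potri.014G037900.v3.0 the values were 20.7, 15.4 and 11.4 CPM under Cd + N, 23.9, 34.0 and 31.7 CPM under Cd and 7.64, 6.24 and 8.75 CPM in CK. The order of the groups was the same, and the log2 fold change of Cd + N against CK was 1.07 ± 0.24 (SE; adjusted p = 0.105, edgeR).

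Potri.001G013400.v3.0 had 3.98, 1.94 and 2.54 CPM under Cd + N, 16.3, 15.8 and 15.9 CPM under Cd and 15.5, 5.83 and 9.64 CPM in CK. CK replicate 1 nearly reached the Cd level, the Cd libraries hardly differed, and all Cd + N values were below the CK values. Against CK the log2 fold change was -1.87 ± 0.38 (SE; adjusted p = 0.0830 by edgeR, and 0.0215 with the replicate block). Potri.006G034000.v3.0 had 4.51, 2.35 and 2.28 CPM under Cd + N, 39.4, 37.7 and 59.2 CPM under Cd and 24.3, 5.71 and 21.0 CPM in CK. CK replicate 2 was far below the other controls and still above each Cd + N value. Against CK the log2 fold change was -2.48 ± 0.53 (SE; adjusted p = 0.0921 by edgeR, and 0.0352 with the replicate block). By DESeq2 the adjusted p was 0.00115 for Potri.008G213100.v3.0, 0.00441 for Potri.014G037900.v3.0, 0.00022 for Potri.001G013400.v3.0 and 0.000161 for Potri.006G034000.v3.0.

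**Figure D5:**
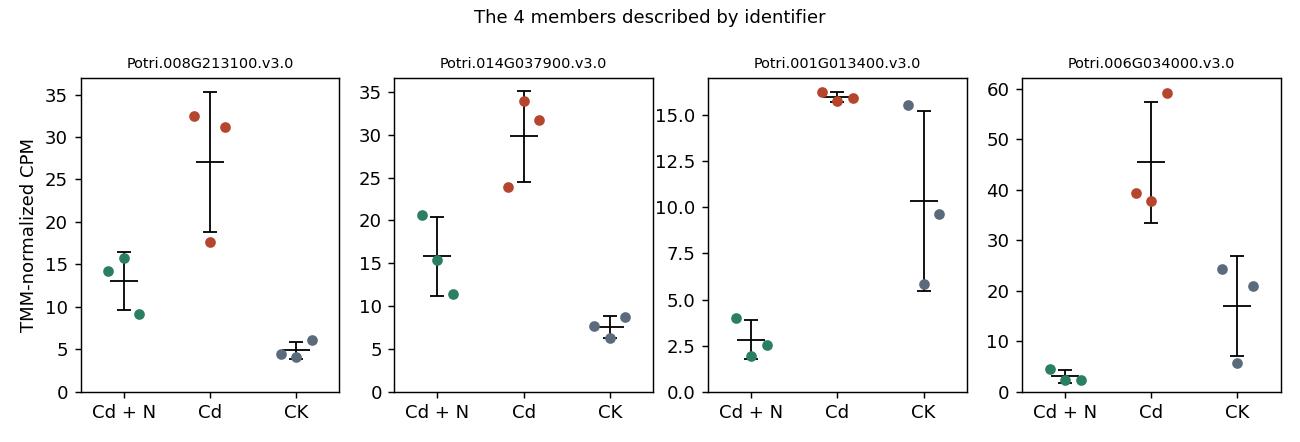
TMM-normalized CPM of the 4 members described by identifier in Cd + N, Cd and CK, with a point per library, the mean as a horizontal mark and the SD as error bars (n = 3). In the first pair Cd + N lies between Cd and CK, and in the other pair Cd + N lies below CK, at means of 2.82 and 3.05 CPM against 10.3 and 16.98 CPM.

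The members were spread over the genome, with some of them near each other. In the naming scheme of these identifiers, digits after the first point give the chromosome and the later digits the order along it, and a letter T marks sequence not placed on a chromosome. By this reading the members fell on each of 19 chromosomes, from 2 on chromosome 19 to 10 each on chromosomes 1, 3 and 16, and 6 members were unplaced. Members made up 1.21% of the genes with at least 1 CPM on chromosome 16, the largest share, and 0.33% on chromosome 19, the smallest. Several of the members on chromosome 16 lay in a short run of identifiers. These were Potri.016G021700.v3.0, Potri.016G021800.v3.0, Potri.016G022200.v3.0, Potri.016G022500.v3.0 and Potri.016G023200.v3.0. Positions were not checked against an annotation.

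Members also occurred next to each other. Among the 127 placed members, 10 had another member as the next listed gene with at least 1 CPM, which makes 5 adjacent pairs. Of the 254 neighbouring places of members, 3.94% were held by a member, and members are 0.559% of the 22708 placed genes with at least 1 CPM. In the pair on chromosome 16 the lengths behind the FPKM values were nearly the same, 1443 and 1446 bases. So were those of the pair on chromosome 11 with 1206 and 1173 bases. In the other pairs these lengths differed by more than 3 to 1. In the most abundant pair, on chromosome 11, the means were 53.9 and 22.1 CPM under Cd + N, 84.2 and 42.6 CPM under Cd and 33.8 and 9.31 CPM in CK. How the authors counted reads shared by neighbouring or near-identical genes is not given in the sources used here, so the members of a pair may not be independent measurements.

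The length behind the FPKM values was lower in the members than in all genes. What this length covers, such as 1 transcript or several of a gene, is not given in the sources used here. It reached 176595 bases among the 23384 genes, so it was not read as the size of a gene. The length recovered from counts and FPKM had a median of 1440 bases in the members and 1926 bases in the 23384 genes, and 33.1% of the members were under 1000 bases against 24.8% of all genes. The difference was not tested. Low-abundance genes are more frequent among the members, and the part of abundance in this difference was not tested.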

How the data were processed

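RNA from the fourth to sixth leaves was sequenced by the authors in 9 libraries (TruSeq kit). The submitters' processing notes name Bowtie2 2.0.6 and TopHat2 2.0.12 without a role. For the counting tool, genome build and use of strand, none is given in the sources used here. The authors deposited raw counts of reads per gene and FPKM values. The FPKM values equal these counts scaled to a length per gene and the library total within a relative tolerance of 1e-06.

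The sample titles gave the group and the replicate number. The members and lists were chosen with earlier results of these data known. CPM were computed over all 41335 genes with edgeR 4.0.16 TMM factors (R 4.3.3). The members, of which up to 200 would have been kept, were found by the rule given above. Cd + N was compared with CK by the quasi-likelihood test of edgeR, fitted to all 9 libraries without a block. It was run on the 27378 genes kept by filterByExpr (minimum count 10, minimum total 15), and each standard error was approximated by dividing the absolute log2 fold change by the root of the F statistic. The threshold was an adjusted p of 0.05 over all genes. DESeq2 1.42.0 and limma 3.58.1 gave alternatives, limma on log2(FPKM + 1) and log2(FPKM + 0.1). Distances used log2 CPM with a prior count of 2. The test and the rule were run on simulated counts. For the rule these held strong increases in abundant genes of low spread, so they do not show how it performs on genes like most members. Counts, gaps and sums without Cd replicate 1, and shares of all genes beside left-out libraries, were added after seeing the data. Plots were drawn with matplotlib 3.10.9.

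For replicates 1, 2 and 3, the deviations from the group mean of the Cd + N and the CK library correlated across genes at 0.18, 0.32 and 0.12. All exceed 0.1, the limit used for taking numbers as pairs. However, Cd + N replicate 1 and CK replicate 3, which differ in number, correlated at 0.27, and the other unmatched pairs of these groups lay between -0.33 and 0.066. The Cd library of replicate 3 correlated with its CK and Cd + N libraries at only 0.054 and 0.045, against 0.14 to 0.44 for replicates 1 and 2. The values thus do not single out replicate 3 as a pair. What a number shares is not stated, and this pairing comes from the data. In no pair of replicate libraries did the counts agree within sampling noise, as the chi-square per degree of freedom was at least 29.5.

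Named members had been set as those with known functions. Since identifiers are not paired with names here, the fallback was used, which takes a pair of members per direction by smallest p between Cd + N and CK. Gene lists by function, cell type markers and promoter motifs were set but could not be looked up, and no sequence was used.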

Additional observations from a re-analysis of the deposited data

How the results depend on the processing

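The number of genes that pass the rule was 133. It was 124 with upper-quartile factors, 130 with DESeq2 size factors and 133 with the deposited FPKM, of which 101 were members. It was 244 without a minimum mean CPM, 75 with a minimum of 5 CPM and 58 with ratios of at least 2. With each library left out in turn it ranged from 123 to 757. The number of members whose Cd + N and CK libraries do not overlap was 14 to 16 under other scalings and ranged from 15 to 44 with each library left out, the highest without CK replicate 2. Over all 23384 genes the share that does not overlap ranged from 26.5% to 47.3% in the same settings, and in each it was above the share of members, which ranged from 11.3% to 33.1%. The rule used these same values and keeps both groups below Cd, and the settings share libraries. The order is therefore a description, and its recurrence is not repeated support.

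For Cd + N against CK, 0 members were called by edgeR also with upper-quartile factors, DESeq2 size factors, unfiltered genes, the Cd + N and CK libraries alone, and by limma on log2(FPKM + 1) and log2(FPKM + 0.1), where 120 of the members passed the filter on low FPKM and were tested. DESeq2 called 9 and the replicate block 2. Leaving out single libraries gave between 0 and 1, the 1 without CK replicate 2, where 58 of 28009 genes were called. Over all genes, 73 were called, 256 and 130 by limma on log2(FPKM + 1) and log2(FPKM + 0.1), 2133 by DESeq2 and 1442 with the replicate block. Leaving out single libraries gave from 0 to 440 genes. The count was 440 when Cd replicate 1 was dropped, 58 when CK replicate 2 was dropped, 42 when Cd + N replicate 3 was dropped and 3 when Cd replicate 3 was dropped. It was 0 when Cd + N replicate 1, Cd + N replicate 2, Cd replicate 2, CK replicate 1 or CK replicate 3 was dropped. For all these settings the cause was not tested. The median log2 fold change of the members lay between -0.28 and 0.031 in the 17 alternatives, of which both on FPKM cover 120 members. It differed by at most 0.15 from the value of -0.12 and was negative in 15 of them. The spread between single libraries was 0.26, larger than the value itself. Leaving out 1 of 3 libraries moves a group mean by less than such a spread nearly by construction, so the small shift is not support.

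The 4 members described by identifier kept the sign of their log2 fold change in all 17 alternatives. The adjusted p in these ranged from 0.00115 to 0.373 for Potri.008G213100.v3.0, from 0.00441 to 0.401 for Potri.014G037900.v3.0, from 0.00022 to 0.332 for Potri.001G013400.v3.0 and from 0.000161 to 0.353 for Potri.006G034000.v3.0. The replicate block changed no other call than those given. The shares of promoters with a motif were not run. Low read counts limit the members of lowest abundance.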

Other observations

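Many genes had Cd means as far above the other groups as the members had and were left out because a Cd library overlapped another group. Of the 701 genes with at least 1 CPM and both ratios of at least 1.5, 568 were of this kind. Cd replicate 1 was the lowest Cd library in 383 of these 568, Cd replicate 2 in 120 and Cd replicate 3 in 65. With Cd replicate 1 set aside, 273 of the 568 met the whole rule, against 50 with Cd replicate 2 and 26 with Cd replicate 3 set aside.

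Among them, 11 genes had a smaller ratio of at least that of the second-ranked member. The largest, 170, belonged to a gene with 0.410, 0.162 and 1.48 CPM in Cd + N replicates 1, 2 and 3, 0.171, 67.9 and 281 CPM in the Cd replicates and 0.156, 0.343 and 0.0279 CPM in the CK replicates. It was at the control level in Cd replicate 1 and far above it in both other Cd libraries. The next gene was also high in Cd replicates 2 and 3 only, and its Cd replicate 1 lay below each Cd + N and CK value. It had 1.05, 0.189 and 0.415 CPM under Cd + N, 0.0342, 24.7 and 71.1 CPM under Cd and 0.495, 0.374 and 0.671 CPM in CK. In 5 of the 11 genes a single Cd library held at least 80% of the Cd sum, Cd replicate 2 in 3 genes and Cd replicate 3 in 2. One of them had 0.205, 0.675 and 0.0260 CPM under Cd + N, 0.342, 24.2 and 1.39 CPM under Cd and 0, 0 and 0.140 CPM in CK. These genes were chosen after their values were seen, and nothing was tested on them.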
